A study of Mus musculus with 8 samples.

Results

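Mast cells answer an encounter with antigen, microbial products or cytokines by secreting cytokines and chemokines, and the mRNAs of many of these are short-lived. Regnase-1, the endoribonuclease that *Zc3h12a* encodes, is known to cut inflammatory mRNAs at stem-loops of their 3′ untranslated regions (3′UTRs), while proteins of the tristetraprolin family bind AU-rich elements there. Transcription of these genes is known to be induced through NF-κB, AP-1 and NFAT and restrained by feedback regulators such as A20.

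The mRNAs of 10 such cytokines and chemokines were described here in resting bone marrow–derived mast cells (BMMCs): the inflammatory cytokines *Tnf*, *Il6* and *Il1b*, the type 2 cytokines *Il4* and *Il13*, the chemokines *Ccl2*, *Ccl3* and *Ccl4*, and the growth factors *Csf1* and *Lif*. They were chosen by symbol from the 24059 genes of the count files, and all 10 were among the 14934 genes that passed the filter on low counts. BMMCs were grown from the bone marrow of 4 C57BL/6 mice 6 to 8 wk old with IL-3 for at least 4 wk. They were transfected with Cas9-gRNA ribonucleoproteins (RNPs) with guide RNAs either against *Zc3h12a* (genotype label *Zc3h12a* KO) or scrambled, which targets no gene (*Zc3h12a* WT), and RNA was taken after 1 wk in culture. No stimulus was given, each sample was an edited bulk population rather than a clone, and there were 4 samples per RNP, numbered 1 to 4.

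The samples held 19610240 to 33986762 gene counts with scrambled RNP and 23712029 to 28564062 with *Zc3h12a* RNP. Levels are CPM, counts scaled to the TMM-normalized library size, and pairs are the samples that share a replicate number. *Zc3h12a* itself was at 24.9, 38.0, 37.1 and 39.3 CPM in scrambled samples 1 to 4 and at 26.8, 41.1, 32.2 and 32.6 CPM in *Zc3h12a* RNP samples, so its mRNA did not tell the groups apart and gave no check of the labels. Summed mast cell markers, with *Kit*, *Fcer1a*, *Ms4a2* and *Cpa3* among them, were at 60929 to 70653 CPM with scrambled and 57669 to 61415 CPM with *Zc3h12a* RNP, and of 15 markers only *Tpsab1* stayed at or under 10 counts in every sample. Of the 14 tested, 12 had log2 fold changes below 0, 3 of them with an unadjusted p at or under 0.05 and 5 lower in 4 of 4 pairs. For comparison, 6299 of all 14934 genes that passed the filter were below 0. By the p-value 4.05% of these genes were lower, and by the pairs 8.54%. The part of the marker differences in the values below was not tested. Macrophages make several of the same cytokines. The 14 macrophage markers together were at 17.3 to 21.5 CPM with scrambled and 16.9 to 23.3 CPM with *Zc3h12a* RNP, and 7 of them, including *Csf1r*, *Mrc1* and *C1qa*, had at most 10 counts in each sample. The 6 basophil markers summed to 502 to 544 and 447 to 514 CPM. Most of this was *Cd200r3*, with a mean of 494 CPM over the 8 samples, and the next highest, *Mcpt8*, had 4.59. The lymphocyte markers, 9 of 10 among the symbols, summed to 1.37 to 8.28 and 3.90 to 6.99 CPM. The 8 dendritic cell markers summed to 6.50 to 25.4 and 8.25 to 14.3 CPM. Of 10 neutrophil markers, 5 were among the symbols and summed to at most 0.390 CPM. In bulk samples, fewer cells that make a transcript and less of it per cell cannot be told apart.

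The 3′UTRs of the genes were searched for stem-loops (hairpins) and AU-rich nonamers, elements of known mRNA decay routes. In GENCODE's canonical transcripts on GRCm39, a stem of at least 5 Watson-Crick pairs closing a loop of 3 bases in the order pyrimidine, purine, pyrimidine was found in *Tnf*, *Ccl2* and *Ccl4*. The nonamer TTATTTATT, an AU-rich element, was found in *Tnf*, *Il13* and *Lif*. Neither was found in *Il6*, *Il4*, *Il1b*, *Ccl3* and *Csf1*. Hairpins of other forms were not searched for. The sites found are shown because they are elements of these decay routes, with the loop or the nonamer in capitals.
*Tnf* hairpin, chr17:35418558-35418578, minus strand: catgttttcTGTgaaaacgga
*Tnf* hairpin, chr17:35418403-35418423, minus strand: tctgctcccCACgggagccgt
*Tnf* AU-rich nonamer, chr17:35418656-35418684, minus strand: aTTATTTATTATTTATTTATTATTTATTt
*Ccl2* hairpin, chr11:81928253-81928273, plus strand: aaagaaataTATtatttttgt
*Ccl4* hairpin, chr11:83555403-83555423, plus strand: cgtgtctccCATggagatggt
*Il13* AU-rich nonamer, chr11:53522574-53522590, minus strand: gatcTTATTTATTatgg
*Lif* AU-rich nonamer, chr11:4222045-4222061, plus strand: gcctTTATTTATTattt
*Lif* AU-rich nonamer, chr11:4222408-4222424, plus strand: atttTTATTTATTcaat
*Tnf* was the only gene of the 10 with elements of both kinds, at 2 hairpins and 5 nonamers, the last of which runs past the stretch shown, in 764 bases. Of 2028 genes whose 3′UTR is 0.8 to 1.25 times as long, 14.9% have such a hairpin and 4.88% a nonamer. For *Ccl2* and *Ccl4*, 4.96% of 1231 and 5.04% of 1290 genes of like length have a hairpin. For *Il13* and *Lif*, 4.64% of 1981 and 15.3% of 2387 genes of like length have a nonamer. The pentamer ATTTA was present in each of the 10 genes, from 1 time in *Ccl2* to 8 times in *Tnf*. Medians over genes of like length were 0 and 1 for these, and 3 and 5 for *Csf1* and *Lif*, which had 4 and 7. A match of letters is not a tested binding site.

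RefSeq's promoter table, whose sequences come from GRCm38.p6, holds 8 of the 10 genes, and each sequence matched GRCm39 at a single place, given here. The 4 shown, of 250 bases before and 50 after the start, belong to the gene with the largest fold change (*Tnf*), the growth factor with the lowest p among negative changes (*Lif*), the gene with the widest range between scrambled samples (*Ccl3*), and *Il6*. Capitals mark matches on either strand to the NF-κB consensus, AP-1 (TGANTCA), the NFAT core (GGAAA, or TTTCC on the other strand) and the TATA box (TATAAA).
*Tnf* promoter, chr17:35420934-35421233, minus strand: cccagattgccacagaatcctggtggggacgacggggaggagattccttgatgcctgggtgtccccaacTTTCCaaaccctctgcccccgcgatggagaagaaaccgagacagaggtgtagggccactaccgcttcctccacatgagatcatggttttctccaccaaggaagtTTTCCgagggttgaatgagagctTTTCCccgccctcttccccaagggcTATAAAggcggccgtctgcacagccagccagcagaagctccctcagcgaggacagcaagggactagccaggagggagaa
*Il6* promoter, chr5:30217862-30218161, plus strand: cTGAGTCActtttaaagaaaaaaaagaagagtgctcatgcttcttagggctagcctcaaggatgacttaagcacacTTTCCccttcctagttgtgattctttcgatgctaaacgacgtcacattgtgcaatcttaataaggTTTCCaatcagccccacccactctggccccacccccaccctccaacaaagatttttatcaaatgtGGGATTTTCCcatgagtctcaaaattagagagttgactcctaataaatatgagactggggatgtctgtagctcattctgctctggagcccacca
*Ccl3* promoter, chr11:83540155-83540454, minus strand: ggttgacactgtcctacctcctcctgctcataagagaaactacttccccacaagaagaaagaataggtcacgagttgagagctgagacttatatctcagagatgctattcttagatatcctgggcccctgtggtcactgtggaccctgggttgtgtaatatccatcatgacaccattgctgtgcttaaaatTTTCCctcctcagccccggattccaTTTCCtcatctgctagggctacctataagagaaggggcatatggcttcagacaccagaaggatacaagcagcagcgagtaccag
*Lif* promoter, chr11:4207318-4207617, plus strand: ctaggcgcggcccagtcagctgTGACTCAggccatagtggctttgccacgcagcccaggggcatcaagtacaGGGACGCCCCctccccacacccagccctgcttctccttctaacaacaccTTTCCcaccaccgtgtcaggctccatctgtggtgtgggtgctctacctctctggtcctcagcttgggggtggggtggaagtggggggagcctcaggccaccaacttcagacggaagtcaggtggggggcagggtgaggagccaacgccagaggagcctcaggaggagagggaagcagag
The NF-κB consensus was matched in *Il6*, *Lif* and *Csf1*, against 8.46% of 32851 promoters of this length, and AP-1 in *Il6* and *Lif*, against 7.81%. In *Il6* an NFAT core lies inside the NF-κB match. The NFAT core was present in all 8 genes and in 61.3% of the promoters. A TATA box was matched in *Tnf*, *Il13* and *Il1b*, against 13.6%.

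Read per length, the chemokine *Ccl2* and *Tnf* were the most abundant of the 10 mRNAs in these unstimulated cells. Mean CPM per kilobase of exon over the 8 samples was 475 for *Ccl2*, 348 for *Tnf*, 184 for *Lif*, 130 for *Ccl3*, 82.4 for *Il6* and 53.4 for *Ccl4*. It was 20.3 for *Il13*, 10.9 for *Il4*, 7.77 for *Csf1* and 1.84 for *Il1b*. Among 14384 genes with a length, 99.7% were below *Ccl2* and 99.5% below *Tnf*, while 73.2% were below *Csf1* and 44.2% below *Il1b*. Only *Ccl4* over *Il13* and *Csf1* over *Il1b* kept the order of neighbours in 8 of 8 samples. The order of the other neighbours turned in 1 or 2 samples each, and *Ccl3* ranged from the third to the sixth place. With the longest transcript as length, *Il4* was at 22.1 CPM per kilobase and moved above *Il13*.

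**Figure D1:**
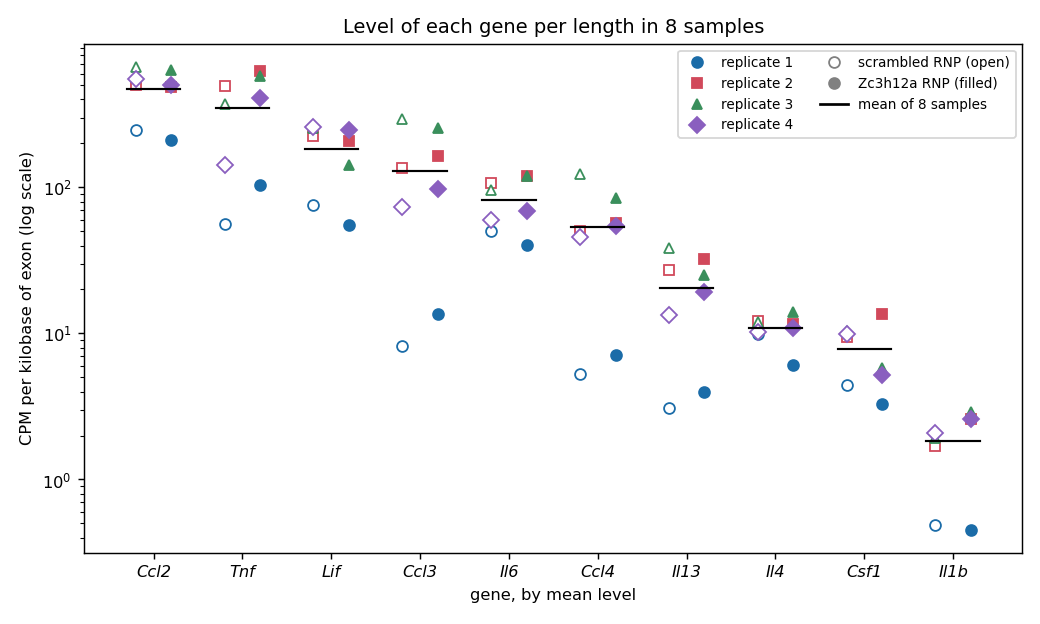
CPM per kilobase of exon (log axis) of the 10 genes in each sample, ordered by mean, with open symbols for scrambled RNP, filled symbols for *Zc3h12a* RNP, a symbol shape and color per replicate number and a line at the mean of 8 samples. Means run from 475 for *Ccl2* to 1.84 for *Il1b*, and replicate 1 (circles) lies lowest of its group for every gene.

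No gene of the 10 passed the thresholds of a log2 fold change beyond 0.5 and an adjusted p at or under 0.05 after *Zc3h12a* RNP (quasi-likelihood test of edgeR, blocked by replicate number, with Benjamini-Hochberg adjustment over all genes tested). Among all genes tested, 0% were called higher and 0% lower. At an unadjusted p at or under 0.05, *Tnf* was higher, where 2.12% of all genes were, and *Lif* was lower, where 4.05% were. By count of members past the thresholds, DESeq2's test gave 1 and limma-trend 0. In 4 of 4 pairs *Tnf* was higher, beside 4.98% of all genes, and *Ccl2* and *Lif* were lower, beside 8.54%. The groups overlapped for each of the 10 genes, and they were separate for 0.924% of all genes. Log2 fold changes were above 0 for 6 genes and below 0 for 4, with a median of 0.067 against 0.038 over all genes tested. The exact sign-flip test of a gene's pair differences, two-sided, cannot go below p = 0.125 with 4 pairs.

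**Figure D2:**
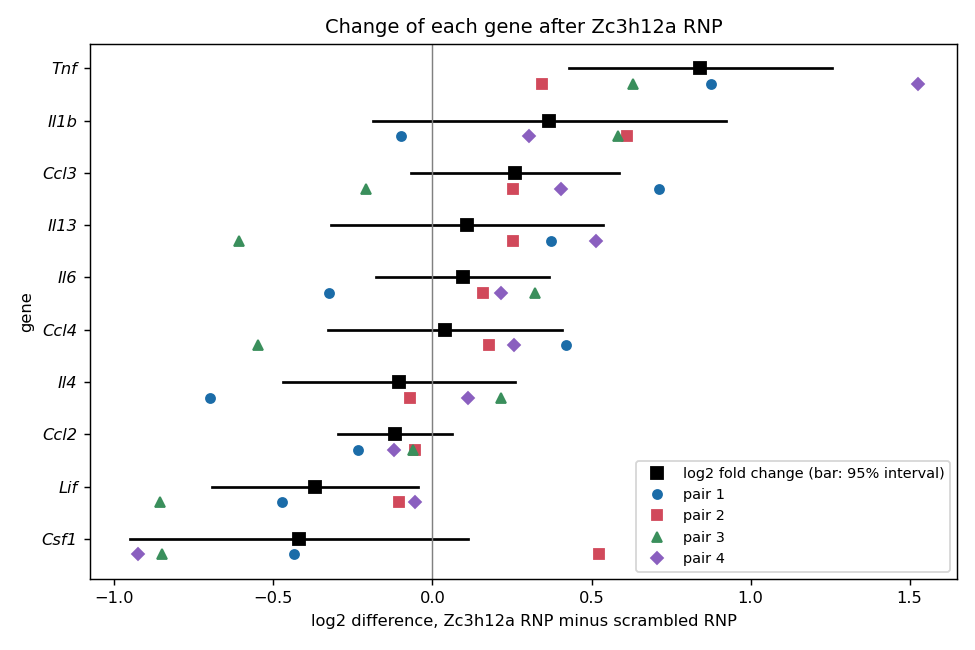
Log2 difference between *Zc3h12a* RNP and scrambled RNP for each gene, with black squares and bars for the fitted log2 fold change and its 95% confidence interval and colored symbols for the 4 pairs. The interval lies above 0 for *Tnf* (0.43 to 1.26) and below 0 for *Lif* (-0.69 to -0.047). The pairs lie on both sides of 0 for every gene but *Tnf*, *Ccl2* and *Lif*.

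*Tnf*, which encodes the inflammatory cytokine TNF (ENSMUSG00000024401, chr17:35418357-35420983, minus strand), was at 92.4, 814, 611 and 232 CPM in scrambled samples 1 to 4 and at 170, 1035, 945 and 668 CPM in *Zc3h12a* RNP samples. Replicate 1 was lowest and replicate 2 highest in each group, and *Zc3h12a* RNP samples 2 to 4 each exceeded at least 3 scrambled samples. Its fold was 1.79 (95% interval 1.35 to 2.39). Pair 4 had the largest difference, 1.53 on the log2 scale, and pair 2 the smallest, 0.35. The sign-flip test gave its least p, 0.125 (exact, n = 4 pairs). Of the sum of squares of its log2 CPM, 84.8% fell to replicate number, 12.0% to RNP and 3.19% to the rest. *Tnf* had the largest share for RNP among the 10 genes. Its adjusted p was 0.424 and was between 5.4e-06 and 1 over the 12 alternatives of edgeR, DESeq2 or limma. The settings that called it were no filter on low counts, DESeq2, removal of the replicate effect, and the omission of replicate 2, where its log2 fold change was 1.07.

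*Il6* (ENSMUSG00000025746, chr5:30218112-30224979, plus strand) encodes a cytokine of the acute-phase response. It was at 122, 258, 232 and 144 CPM with scrambled RNP and at 97.6, 289, 290.0 and 167 CPM with *Zc3h12a* RNP. Replicates 2 and 3 were high and replicates 1 and 4 low in each group, and the groups overlapped. The fitted log2 fold change was 0.095 (standard error 0.12, 95% interval -0.18 to 0.37, adjusted p = 0.960 in edgeR's test), and without replicate 3 it was -0.036. The ratio of *Tnf* to *Il6* counts was not steady and went from 0.756 in scrambled sample 1 to 3.99 in *Zc3h12a* RNP sample 4.

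*Il1b*, the gene of interleukin-1β, a cytokine released after cleavage by caspase-1, was the least abundant (ENSMUSG00000027398, chr2:129206490-129213059, minus strand). Raw counts were 40, 132, 127 and 114 in scrambled samples and 34, 156, 183 and 207 in *Zc3h12a* RNP samples, or 1.27, 4.40, 5.00 and 5.42 CPM against 1.18, 6.76, 7.53 and 6.72 CPM. The *Zc3h12a* RNP sample was the higher in pairs 2 to 4 and the lower in pair 1. Replicate 1 was low in each group, and the groups overlapped. The fitted log2 difference of 0.37 had a 95% interval of -0.19 to 0.92 (standard error 0.24, adjusted p = 0.960, edgeR's test). An antisense gene, *Il1bos*, overlaps its exons over 70 bases.

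Neither type 2 cytokine passed the test. *Il4* (ENSMUSG00000000869, chr11:53493809-53509496, minus strand), whose product drives class switching to IgE, was at 12.2, 15.0, 14.8 and 12.5 CPM in scrambled samples and at 7.49, 14.3, 17.2 and 13.5 CPM in *Zc3h12a* RNP samples. It varied the least of the 10 genes among scrambled samples, with a highest level 1.23 times the lowest, and the groups overlapped. Its log2 fold change was -0.11 (95% interval -0.47 to 0.26) and turned to 0.13 without replicate 1. Exons of *Kif3a* on the other strand overlap those of *Il4* over 179 bases, and the strand setting of the counting is not given in the sources used here.

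*Il13*, known for mucus production and airway reactivity, lies 12654 bases from *Il4* (ENSMUSG00000020383, chr11:53522151-53525529, minus strand). It was at 3.71, 32.9, 46.1 and 16.1 CPM with scrambled and at 4.82, 39.2, 30.2 and 23.0 CPM with *Zc3h12a* RNP. Replicate 1 was lowest in each group by far, and the highest scrambled sample was 12.4 times the lowest. The log2 fold change of *Il13* was 0.11 (95% interval -0.32 to 0.53), with a difference of -0.61 in pair 3 and positive differences in the other pairs. It was -0.039 without replicate 4 and -0.025 with no replicate block. The ratio of *Il13* to *Il4* counts was 0.304 and 0.644 in the samples of replicate 1 and 1.29 to 3.11 in the others. Both neighbors were lowest in replicate 1 in each group, but *Il13* ranged more widely than *Il4*.

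Of the chemokines, *Ccl2* had the most even pair differences of the 10 genes (SD 0.082 on the log2 scale). *Ccl3* and *Ccl4* had the widest ranges between scrambled samples, which were much narrower without replicate 1. *Ccl2* (ENSMUSG00000035385, chr11:81926397-81928279, plus strand), which encodes a chemoattractant of monocytes, was at 281, 574, 758 and 624 CPM in scrambled samples and at 239, 552, 726 and 574 CPM in *Zc3h12a* RNP samples. Replicate 3 was highest and replicate 1 lowest in each group, and the *Zc3h12a* RNP sample was the lower of each pair by a small margin. The value of -0.12 (log2) had the smallest standard error of the 10 genes, 0.077, with a 95% interval of -0.30 to 0.062 (adjusted p = 0.960, edgeR's test; sign-flip p = 0.125, exact). Replicate number took 98.6% of its sum of squares.

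*Ccl3* and *Ccl4* encode the chemokines also known as MIP-1α and MIP-1β, and lie 13191 bases apart on opposite strands (ENSMUSG00000000982, chr11:83538670-83540191; ENSMUSG00000018930, chr11:83553383-83555509). *Ccl3* was at 6.40, 106, 229 and 57.3 CPM with scrambled and at 10.5, 126, 198 and 75.8 CPM with *Zc3h12a* RNP. *Ccl4* was at 3.61, 34.7, 84.6 and 31.4 CPM with scrambled and at 4.85, 39.3, 57.8 and 37.5 CPM with *Zc3h12a* RNP. In each group both genes were highest in replicate 3 and lowest in replicate 1, and their groups overlapped. The highest scrambled sample was 35.7 times the lowest for *Ccl3* and 23.4 times for *Ccl4*. Without replicate 1, the highest of the 6 samples of both groups was 3.99 and 2.69 times the lowest, and that of *Tnf* 4.46 times. Log2 fold changes were 0.26 (95% interval -0.067 to 0.59) and 0.039 (-0.33 to 0.41), with pair 3 below 0 and the other pairs above it for either gene. That of *Ccl4* was -0.046 without replicate 4 and -0.15 with no replicate block. The ratio of *Ccl3* to *Ccl4* counts stayed between 1.77 and 3.42 over the 8 samples.

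The growth factors had negative log2 fold changes, which the test did not call. *Lif* (ENSMUSG00000034394, chr11:4207557-4222514, plus strand), an IL-6 family cytokine, was at 351, 1034, 1177 and 1190 CPM in scrambled samples and at 253, 962, 650 and 1147 CPM in *Zc3h12a* RNP samples. Replicate 4 was highest and replicate 1 lowest in each group, and the *Zc3h12a* RNP sample was the lower of each pair. Its fold was 0.774 (95% interval 0.618 to 0.968, unadjusted p = 0.0300 and adjusted p = 0.728 in edgeR's test; sign-flip p = 0.125, exact), with pair 3 at -0.86 and pair 4 at -0.053 on the log2 scale.

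*Csf1* (ENSMUSG00000014599, chr3:107648364-107667806, minus strand), the growth factor of macrophages, was at 26.0, 55.5, 61.4 and 58.4 CPM with scrambled RNP. With *Zc3h12a* RNP it was at 19.2, 80.0, 34.0 and 30.7 CPM. In *Zc3h12a* RNP samples replicate 2 stood above the rest, and in scrambled samples replicates 2 to 4 were close together. Its log2 fold change was -0.42 (standard error 0.23, 95% interval -0.95 to 0.11, adjusted p = 0.920 in edgeR's test). The differences were -0.43, 0.52, -0.85 and -0.92 in pairs 1 to 4. Without replicate 2 the log2 fold change was -0.68 with an adjusted p of 0.0139 in edgeR's test, which passes both thresholds. That fit took more degrees of freedom for its p-values than the main fit. The adjusted p of *Csf1* was between 0.0139 and 1 over the 12 alternatives of edgeR, DESeq2 or limma. The receptor gene of its product, *Csf1r*, was not among the genes tested.

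**Figure D3:**
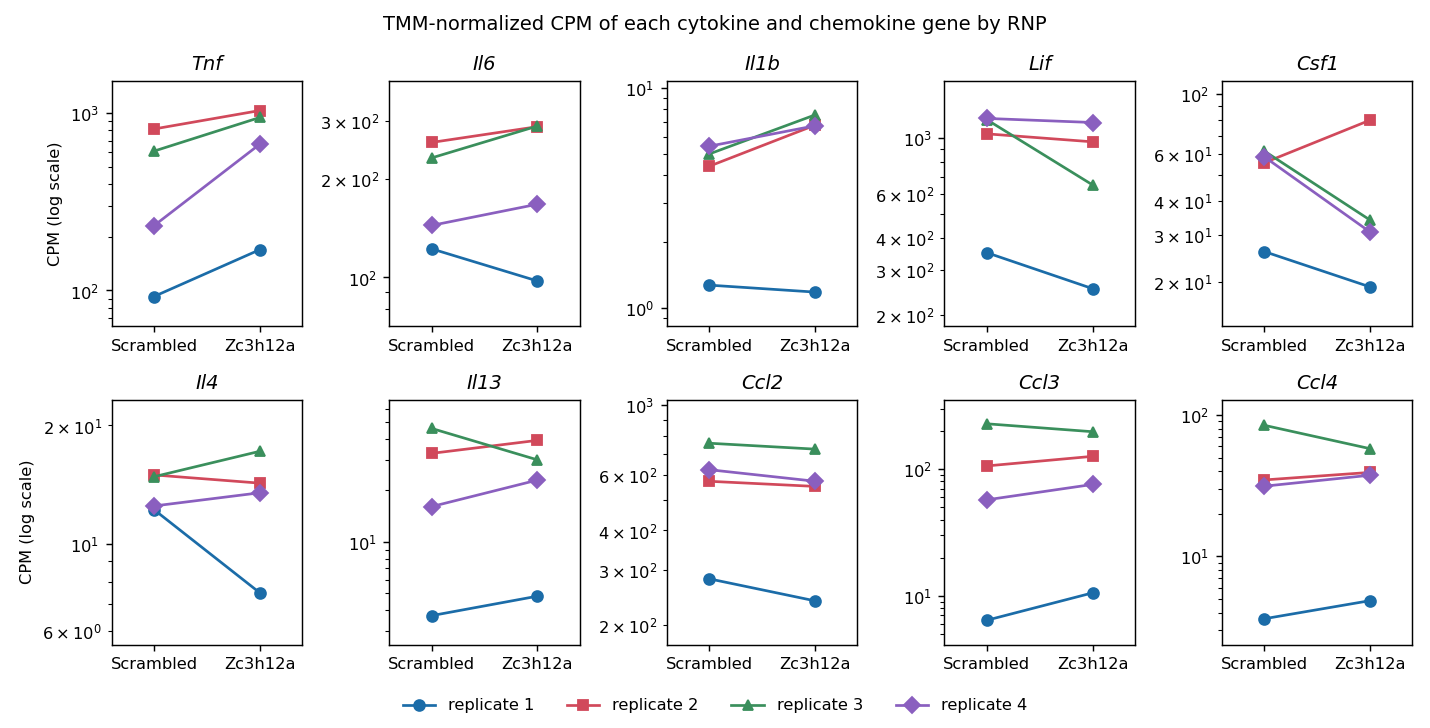
CPM (log axis, a scale per panel) of the 10 genes with scrambled and *Zc3h12a* RNP, with a line joining the 2 samples of each replicate number. Replicate 1 is the lowest line at both ends of every panel, and every line runs upward only for *Tnf* and downward only for *Ccl2* and *Lif*.

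The 10 genes shared a pattern over the replicates, seen with either RNP, which was noticed after the values were seen and given as a description. Each of the 10 was lowest in replicate 1 in both groups, where 822 of 14934 genes (5.5%) were. With DESeq2's size factors 9 were, *Il4* being the exception, and with total counts 10 were, beside 4.46% and 4.85% of all genes. The genes' median deviation from their own mean was -1.34 and -1.45 (log2 CPM) in the 2 samples of replicate 1 and 0.12 to 0.71 in the other 6. These 2 samples held 17.3 and 19.1 CPM of summed macrophage markers, inside the range of the other samples. Their summed mast cell markers were the highest of the 8 samples with scrambled RNP (70653 CPM) and the lowest with *Zc3h12a* RNP (57669 CPM). The same held for their summed basophil markers (544 and 447 CPM), most of which was *Cd200r3*. The part of these in the pattern was not tested. The labels name no batch for replicate 1, and the part of the mouse, the culture and the handling in this difference cannot be told apart.

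Replicate number took a median of 94.5% of the sum of squares over the 10 genes, from 69.1% for *Il4* to 98.6% for *Ccl2*. The median was 69.7% over all genes tested, with quartiles of 44.2% and 87.5%, and 80.5% over the 9668 genes with a mean log2 CPM above 2, which include the 10. RNP took a median of 1.89% over the 10 genes and 4.37% over all genes. Replicate number has 4 levels and RNP has 2, so the size of either share is to be read against all genes. Without replicate 1, a setting added after seeing the data, the median share of replicate number was 75.3% over the 10 genes, against 68.3% over all genes tested and 80.7% over those with a mean log2 CPM above 2. It was then 95.5% for *Ccl3*, 94.2% for *Ccl2* and 90.2% for *Il6*, but 31.9% for *Lif*, 34.5% for *Csf1* and 7.58% for *Il1b*.

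**Figure D4:**
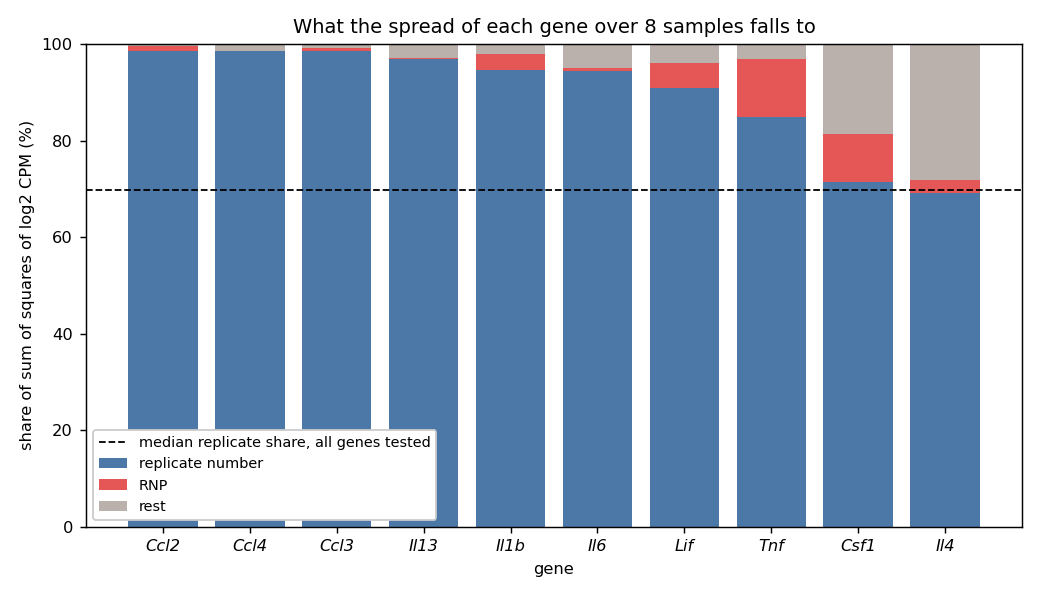
Share (%) of the sum of squares of log2 CPM over 8 samples that falls to replicate number, to RNP and to the rest, as stacked bars per gene, with a dashed line at the median replicate share of all genes tested (69.7%). Of the 10 genes, 9 exceed the line, and RNP takes the most for *Tnf* (12.0%) and *Csf1* (9.92%).

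Over the 8 samples, the 45 pairs among the 10 genes had Pearson correlations of log2 CPM from 0.583 (*Tnf* with *Csf1*) to 0.987 (*Ccl3* with *Ccl4*), with a median of 0.837. The median Spearman rho was 0.690. Samples of a replicate number were taken as pairs from the same mouse, so these are not counted as 8 independent points. Without replicate 1 the median Pearson correlation of the 45 pairs was 0.263, and 15 were below 0, so that much of the shared pattern rested on replicate 1. *Ccl3* with *Ccl4* was at 0.897 in these 6 samples.

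The genes most like a member were chosen by Pearson correlation over the 8 samples among all genes tested. High values follow in part from this choice. The values without replicate 1 reuse samples from it and are not an independent check. For *Ccl2* they were the immediate-early gene *Junb* (0.996, and 0.966 without replicate 1), *Rgs2* (0.995 and 0.986) and the cytokine gene *Osm* (0.991 and 0.893). For *Ccl4* they were the nuclear receptor genes *Nr4a2* (0.993 and 0.920) and *Nr4a1* (0.991 and 0.880) and *Nfkbid* (0.989 and 0.900). *Ccl3* was nearest to *Ccl4*, *Il13* and the chemokine gene *Ccl7* (0.978 and 0.891), and *Il13* to *Ccl3*, *Adgra3* (0.972 and 0.956) and *Ccl4*. Nearest to *Tnf* were *Ier5* (0.968 and 0.904), *Nkrf* and *Cdc14a*, and to *Il6* were *Sertad2* (0.973 and 0.926), *Spry2* and *Usp17ld*. *Il1b* was nearest to *Nfkbiz*, *Adamts1* and *Klf6* at 0.957 to 0.974, but at 0.319 to 0.591 without replicate 1. *Csf1* was nearest to *Zc3h12c*, the gene of Regnase-3 (0.962 and 0.915), *Cds1* and *Tut7*, *Lif* to *Arhgef28* (0.983 and 0.882), *Fzd8* and *Ankrd12*, and *Il4* to *Hilpda* (0.936 and 0.855), *Zfp982* and *Gm8797*.

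Other secreted factors were measured beside the 10. Of 31 other cytokines and growth factors, 16 were tested, 0 passed both thresholds in edgeR's test, and 2 were higher and 1 lower at an unadjusted p at or under 0.05 (2.12% and 4.05% of all genes tested, the shares to read the next lists against), with a median log2 fold change of -0.079. *Osm*, a cytokine of the IL-6 family, had the highest CPM, at 805 ± 317 CPM with scrambled and 786 ± 359 CPM with *Zc3h12a* RNP (SD, n = 4), followed by *Tgfb1*. *Vegfa*, the angiogenic growth factor, was at 115 ± 69.0 and 68.2 ± 25.0 CPM (log2 fold change -0.63, adjusted p = 0.524 in edgeR's test). *Il16* (log2 fold change 0.46) and *Ebi3* (0.73) were the higher ones. In 4 of 4 pairs, 2 of the 16 genes were higher and 4 lower, *Vegfa* among the latter, beside 4.98% and 8.54% of all genes tested. Of 19 other chemokines 9 were tested, with a median of 0.017 and 0 at an unadjusted p at or under 0.05. Among them *Ccl7*, at 200.1 ± 173 and 205 ± 167 CPM, had the highest CPM, and *Ccl6*, *Cxcl16*, *Cxcl12* and *Ccl17* were each under 5 CPM on average. Replicate number took 99.7% of the sum of squares of *Ccl7*.

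Of 16 receptor genes for these factors, 13 were tested, and *Il1r2* and *Il2rg* were lower at an unadjusted p at or under 0.05. *Il1r2*, the decoy receptor of IL-1, was at 170 ± 54.9 CPM with scrambled and 110 ± 42.7 CPM with *Zc3h12a* RNP (SD, n = 4). All 4 pairs were lower, with a fitted log2 value of -0.65 (SE 0.13) and an adjusted p of 0.401 in edgeR's test. *Il2rg*, the common γ chain, had one of -0.24. *Il4ra*, a chain of the receptors of IL-4 and IL-13, had the highest CPM, at 1731 ± 483 and 1669 ± 444 CPM, and *Il1rap* was at 19.6 ± 4.56 and 17.5 ± 2.75 CPM. The counts of *Tnfrsf1a*, *Il13ra2* and *Csf1r* were too low for the test.

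The 26 genes of transcriptional induction had a median log2 fold change of -0.023, with 0 higher and 3 lower at an unadjusted p at or under 0.05. These were *Nr4a3* (-0.75), *Junb* (-0.21) and *Gata1* (-0.22), with adjusted p between 0.575 and 0.700 in edgeR's test. *Egr1* had the highest CPM, at 6662 ± 4674 CPM with scrambled and 5249 ± 2997 CPM with *Zc3h12a* RNP. Like the 10 cytokines and chemokines, 14 of the 26 were lowest in replicate 1 in both groups, and replicate number took a median of 94.1% of their sum of squares.

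Of 18 genes of negative feedback, 2 were higher and 4 lower at an unadjusted p at or under 0.05, with a median of -0.054, and 8 were lowest in replicate 1 in both groups. *Dusp1*, a phosphatase of MAP kinases, was at 241 ± 197 and 142 ± 97.4 CPM (log2 fold change -0.69, adjusted p = 0.401). *Tnfaip3*, the gene of A20, was at 129 ± 90.5 and 75.9 ± 39.1 CPM (-0.70, adjusted p = 0.424), and *Nfkbia*, the gene of IκBα, at 25.5 ± 2.96 and 18.4 ± 4.25 CPM (-0.49, adjusted p = 0.466, all in edgeR's test, n = 4). These 3 have the lowest p of the list. Of the 18 genes, 5 were lower and 2 higher in 4 of 4 pairs, beside 8.54% and 4.98% of all genes tested. *Nfkbie* (-0.20) was the other lower gene, and *Nfkbiz* (0.27) and *Nfkbid* (0.48) were the higher ones; *Nfkbie* and *Nfkbiz* were named after their values were seen. *Cish*, with the highest CPM of the list, was at 874 ± 169 and 812 ± 167 CPM.

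A list of 16 genes acts on cytokine mRNAs or on their decay factors, and not all of its members promote decay. Of these, 0 were higher and 4 lower at an unadjusted p at or under 0.05 (2.12% and 4.05% of all genes tested). The lower ones were *Arid5a* (-0.24), *Zfp36l1* (-0.45), *Malt1* (-0.26) and *Zfp36l2* (-0.21), with a median of -0.038 over the list. *Hnrnpd*, which encodes the AU-rich element binding protein AUF1, had a log2 fold change of -0.13. The 9 genes of cytokine processing had a median of 0.022, and 0 reached an unadjusted p of 0.05. *Nlrp3*, a sensor of the inflammasome, had the highest CPM of these (log2 fold change -0.13), beside 0.16 for *Casp1*, 0.15 for *Rhbdf2* and 0.044 for *Adam10*. In each of these lists of receptors, induction, feedback, mRNA decay or stability, and processing, 0 genes passed both thresholds in edgeR's test.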

How the data were processed

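Poly(A)-enriched RNA of 8 BMMC samples was sequenced. The authors deposited raw read counts per gene symbol, without normalization or batch correction. The submitters' processing notes name FastQC 0.11.9, HISAT2 2.2.1, featureCounts 2.0.1 and build GRCm39. Reads shared by overlapping genes or near copies could be lost or split. On the same strand, 0 of the 50-base stretches of the 10 canonical transcripts occur in another gene's transcripts. The opposite strand was not searched, so overlaps with antisense genes are not covered.

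Counts were filtered within groups (filterByExpr), normalized by TMM and tested in edgeR 4.0.16 (R 4.3.3) by the quasi-likelihood test, with replicate number as a block and Benjamini-Hochberg adjustment over the 14934 genes tested. Pair differences and sums of squares used log2 CPM with a prior count of 2. Groups came from the titles. The design gives 4 mice and 2 RNPs, from which same-numbered samples were taken as pairs. Their deviations from group means correlated at 0.717 to 0.756 over 9668 genes with a mean log2 CPM above 2, where the highest correlation of samples with different numbers was 0.137. Over all genes tested they correlated at 0.041 to 0.62, and the highest of different numbers was 0.398, so pairs 2 and 4 did not stand out there. P-values of the blocked tests rest on the spread of pair differences, moderated over all genes, and not on the spread between replicate numbers. No 2 samples agreed within sampling noise.

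Alternatives were no block, DESeq2 1.42.0, limma-trend 3.58.1, removal of the replicate effect, other normalizations, filters, lengths and prior counts, and leaving out each replicate. Settings added after seeing the data concern replicate 1 and the level of the genes compared with. The members and gene lists were chosen with earlier results of these data known. Named beside the members are, per list, the 3 genes of lowest p and the 2 of highest CPM, and per member the 3 genes of highest correlation. Lengths and positions come from GENCODE on GRCm39, where 22601 of 24059 symbols were found. Figures were drawn with matplotlib 3.10.9.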

Additional observations from a re-analysis of the deposited data

Results flagged for a closer look

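In 3 of 36 groups of 4 samples examined, replicate 1 lay far from the others, with a gap to the nearest sample that was 0.873 of the range for *Il1b* with *Zc3h12a* RNP, 0.835 for *Csf1* with scrambled RNP and 0.846 for *Zc3h12a* with scrambled RNP, each above Dixon's 95% critical value for 4 samples. In each case replicate 1 was the lowest sample. Chance gives such a value in about 1 in 20 groups, and the genes share samples.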

How the results depend on the processing

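Calls moved most with the omission of replicate 2 and the choice of test. In edgeR's test *Tnf* had a standard error of 0.178 and an unadjusted p of 0.00173 in the main fit. Without replicate 2 these were 0.181 and 3.6e-09, and with no low-count filter 0.172 and 2.1e-06. Both of these fits took more degrees of freedom for their p-values than the main fit. Their calls depend in part on this. For the pairing, with no replicate block *Il13* was at -0.025 and *Ccl4* at -0.15 (log2 fold changes), and *Tnf* was at 0.69 with an adjusted p of 1. *Tnf* passed both thresholds, as the only member, in DESeq2 with the block (0.82, adjusted p = 0.000434), after removal of the replicate effect (0.84, 0.0257), and with no low-count filter (0.87, 0.00353). The removal counts residual degrees of freedom that the block would use. Genes higher and lower past the thresholds, 0 and 0 by edgeR over all genes tested, were then 8 and 50, 34 and 79, and 9 and 31. Limma-trend with the block gave 0 and 1, DESeq2's size factors 0 and 1, and at least 10 counts in every sample 0 and 3. Leaving out each replicate gave 0 to 80 higher and 0 to 57 lower genes, most without replicate 2, and 0 to 1 members in each direction. Log2 fold changes then ranged from 0.62 to 1.07 for *Tnf*, -0.68 to -0.24 for *Csf1*, -0.036 to 0.28 for *Il6*, -0.27 to 0.13 for *Il4*, -0.039 to 0.32 for *Il13* and -0.046 to 0.22 for *Ccl4*. The other 4 genes kept direction in all 12 settings and stayed short of the thresholds wherever an adjusted p was given; DESeq2 gave none for *Il1b*. *Il4* was at 22.1 CPM per kilobase with the longest transcript. Causes were not tested. *Il1b*, at 34 to 207 counts, is the gene most limited by depth.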
